A study of Homo sapiens with 4 samples.

Results

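A set of 10 cytokine genes of LV-M100 breast cancer cells were followed through depletion of the splicing factor SNRNP40: IL23A, IL6, IL1A, IL1B, IL11, LIF, CSF2, CSF1, TNF and IL15. They were taken by symbol from the deposited table, in which these 10 of 23217 gene symbols hold 22 of 44578 transcript rows. IL23A was chosen because it was higher after depletion in these same libraries, and the other 9 were set beside it as inflammatory cytokines of a breast cancer line. The difference in IL23A is therefore a description and supports nothing by itself.

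LV-M100 is 1 clone of MDA-MB-231, a triple-negative breast cancer line, picked for low cell-to-cell variability. Both groups were the same clone treated with a Lipofectamine reagent and an oligonucleotide, with RNA taken 48 h after transfection and depleted of ribosomal RNA. In the siControl group, replicate 1 received the NC1 control duplex and replicate 2 the BLOCK-iT Fluorescent Oligo. In the siSNRNP40 group, replicate 1 received siRNA #1 and replicate 2 received siRNA #2, whose strands are shown because they are the treatment. The capitals mark the 7 bases that would pair with bases 2 to 8 of a guide strand complementary to the whole printed strand.
siSNRNP40 #1: ggaauagacaAUGAUAUc
siSNRNP40 #2: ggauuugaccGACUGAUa

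Each transcript row gives 1 FPKM (fragments scaled to the length of the transcript and the number of mapped fragments) per group, in which the authors pooled both libraries. No value therefore has a replicate error here, and the pooled values allow no test over libraries, so whether a difference exceeds the spread between libraries is not known from them. The level of a gene is given here as its FPKM summed over its rows, and a fold change is siSNRNP40 over siControl. A gene with a mean FPKM of at least 1 was counted past the fold when its log2 fold change lay above 1 or below -1. SNRNP40 itself was at 40.4 in the siControl group and 6.12 in the siSNRNP40 group (log2 fold change -2.72). The 6 markers expected high in a mesenchymal-like breast cancer line were VIM, CD44, CAV1, ANXA1 and the epithelial keratins KRT8 and KRT18. They summed to 1938 and 1804, of which KRT8 was at 136 and 119 and KRT18 at 158 and 131. Of 5 markers expected low or at 0, EPCAM was at 10.6 and 10.0 and GATA3 at 1.32 and 1.18, against that expectation. The others, ESR1, PGR and CDH1, were at most 0.0980. PTPRC and CD79A, which define blood cells, were listed at 0 in both groups. The whole list of 8 blood cell markers summed to 10.9 and 11.5, mostly LYZ at 8.46 and 10.2.

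Cytokines are small secreted proteins that cells use to signal to neighbours through surface receptors, most of which act through JAK kinases and STAT factors or through NF-kB. Their genes are usually quiet and are switched on quickly by NF-kB and AP-1, and many of their mRNAs carry AU-rich elements in the 3' UTR that mark them for rapid decay. IL23A encodes the alpha subunit of interleukin-23, a cytokine known for sustaining inflammatory T cells, and it needs the subunit encoded by IL12B to be active. Carcinoma lines of the MDA-MB-231 type are known to secrete IL6, LIF and the colony-stimulating factors.

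IL23A, IL6, IL1A, CSF2, TNF and IL15 were higher after SNRNP40 depletion, and IL1B, IL11, LIF and CSF1 were lower. Only IL23A and CSF2 were past the fold. IL1B and TNF had a mean FPKM below 1 and were not counted, which left 8 of the 10 genes. Of these 8, 2 were past the fold upwards, where the share over all 12334 genes was 0.811%, and 0 were past it downwards, where the share was 0.657%. The median log2 fold change of the 8 genes was 0.58, and 0.34 without IL23A, against 0.003 over all genes. The upward share was 1.99% of 3775 genes with a mean FPKM from 1 to 5 and 0.292% of 8559 genes at 5 or more. IL23A belongs to the first band and CSF2 to the second. Since IL23A was chosen by its value, the count of 2 includes 1 gene that was certain to be in it, and the median of all 8 includes it too.

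**Figure D1:**
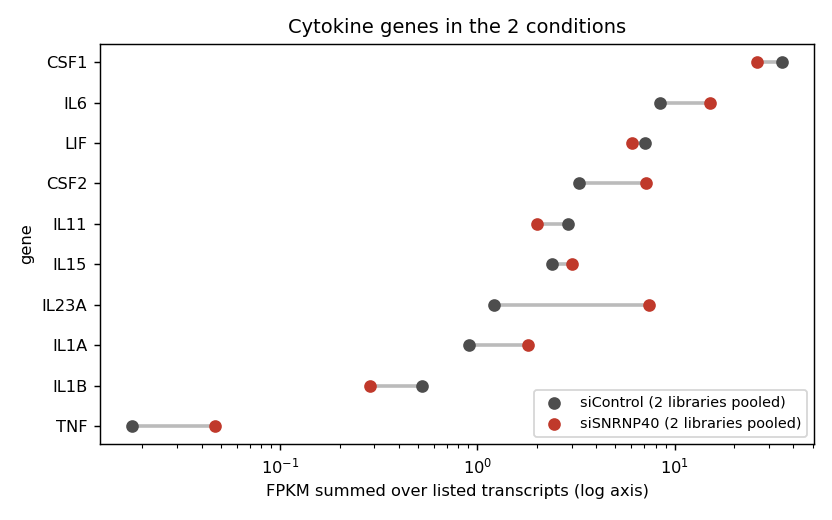
FPKM of each cytokine gene, summed over its rows, with control siRNA (dark points) and SNRNP40 siRNA (red points) on a log axis. Each point pools 2 libraries and has no error bar; the longest line belongs to IL23A, from 1.21 to 7.43, and 4 of the 10 lines run to the left.

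IL23A stood at 1.21 FPKM in the siControl group and at 7.43 in the siSNRNP40 group, a ratio of 6.13 and a log2 fold change of 2.62. This was place 13 from the top among the 12334 genes by log2 fold change. On the scale of FPKM the difference was 6.21, close to the 6.59 of IL6, whose starting level was higher. Among the 10 genes IL23A went from the seventh highest level to the third, with only CSF1 and IL6 above it. With no spread known, neighbours in this order, such as IL23A at 7.43, CSF2 at 7.16 and LIF at 6.07 after depletion, cannot be separated. With a pseudocount of 1 FPKM added to both groups the log2 fold change of IL23A was 1.93, and at a minimum mean FPKM of 5 the gene was not counted.

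The deposited table holds IL23A as 1 row on chromosome 12 of hg19, from 56732663 to 56734194. In the GENCODE annotation of GRCh37, which has the same coordinates, it lies on the plus strand and its main transcript has 4 exons and 1037 bases. PAN2, which encodes a subunit of a deadenylase that shortens poly(A) tails, lies 4825 bases away on the side of lower coordinates. The 6 rows of PAN2 summed to 1.65 and 2.52 (log2 fold change 0.61), and its most expressed row alone gave a log2 fold change of 10.42, so the value of PAN2 depends on how its rows are joined. STAT2, a transcription factor of the interferon response, lies 1187 bases away on the other side. It had 19.6 and 20.5 (log2 fold change 0.064). Summed over rows, both neighbours had a smaller log2 fold change than IL23A, as nearly all genes do, since IL23A was chosen for its rise. Whether strand was used in counting is not given in the sources used here, and fragments of overlapping transcripts cannot be told apart.

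The stretch before the start of IL23A is shown because this gene had the largest fold of the set, and those of CSF2 and IL6 because they had the next folds among genes at an FPKM above 3. Sequences are RefSeq promoter sequences of GRCh38.p14 placed on hg19 by an exact match, cut at 250 bases before the RefSeq start or earlier where the deposited row begins. They cover chr12:56732418-56732662, chr5:131409232-131409481 and chr7:22766569-22766765, all on the plus strand. Capitals mark any of 7 motifs searched on both strands.
IL23A: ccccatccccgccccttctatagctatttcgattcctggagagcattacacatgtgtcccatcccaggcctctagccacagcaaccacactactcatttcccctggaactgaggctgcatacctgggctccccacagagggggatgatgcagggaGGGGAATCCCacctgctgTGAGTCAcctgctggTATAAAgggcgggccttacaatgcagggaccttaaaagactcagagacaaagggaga
CSF2: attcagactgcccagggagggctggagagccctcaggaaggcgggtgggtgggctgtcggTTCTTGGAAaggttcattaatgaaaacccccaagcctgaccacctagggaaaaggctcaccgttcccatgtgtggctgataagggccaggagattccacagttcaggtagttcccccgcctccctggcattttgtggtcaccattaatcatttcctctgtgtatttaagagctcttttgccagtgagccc
IL6: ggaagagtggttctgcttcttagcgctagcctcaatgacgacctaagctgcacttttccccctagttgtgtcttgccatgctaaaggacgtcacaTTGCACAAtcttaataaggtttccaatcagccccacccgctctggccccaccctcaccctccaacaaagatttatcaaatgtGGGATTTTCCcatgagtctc

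In IL23A the capitals are, from left to right, the NF-kB consensus GGGGAATCCC at 95 to 86 bases before the start, the AP-1 motif TGAGTCA at 77 to 71 and a TATA box (TATAAA) at 62 to 57. In IL6 they are a C/EBP motif (TTGCACAA) and the NF-kB consensus GGGATTTTCC, and in CSF2 a GAS motif (TTCTTGGAA), the letters that STAT factors bind. Of the 10 genes, 7 were matched in the promoter table. A gene of the set was counted if any of its entries held the motif, and IL1A has 2 entries. The percentages are over single promoter entries, so the 2 measures differ slightly. Within 250 bases before the start, the NF-kB consensus was in 2 of these 7 (IL23A and IL6) and in 5.21% of 35116 promoters. TGANTCA for AP-1 was in 3 of 7 (IL23A, IL11 and IL1A) and in 6.57%. TATAAA was in 3 of 7 (IL23A, IL1A and TNF) and in 10.7%, TTGCNNAA for C/EBP in 2 of 7 (IL1B and IL6) and in 9.05%, and TTCNNNGAA for GAS in 2 of 7 (CSF2 and IL1B) and in 6.57%. The interferon-stimulated response element (3.02% of promoters) and the cyclic AMP element TGACGTCA (1.65%) were in 0 of the 7. No 2 of these motifs overlap in a sequence shown. IL23A was the only gene of the 7 with the NF-kB, AP-1 and TATA letters together. This combination was read from IL23A itself, and its share over all promoters was not computed. NF-kB letters stood before IL6 and IL23A, both higher after depletion (IL23A by choice), and were not found before CSF2, IL1A and TNF, which were also higher. AP-1 letters stood before genes that were higher (IL23A, IL1A) and lower (IL11). For IL1A the windows lie wholly inside the deposited row, since the RefSeq starts are downstream of its listed start.

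CSF2, which encodes the granulocyte-macrophage colony-stimulating factor GM-CSF, measured 3.28 FPKM in siControl and 7.16 in siSNRNP40 (ratio 2.19, log2 fold change 1.13, place 77 from the top). The gene is 1 row on chromosome 5 from 131409485 to 131411863. With a pseudocount of 1 FPKM its log2 fold change was 0.93, which is no longer past the fold. IL6, the main inducer of the acute-phase response, had 8.47 and 15.1 (ratio 1.78, log2 fold change 0.83). It was the second most abundant of the set in both groups and had the largest gain in FPKM of the 10 genes. Its row lies on chromosome 7 from 22766766 to 22771621. In the deposited table both genes, like IL1B and TNF, carry the cuffdiff status NOTEST, given to rows with too few alignments to be tested. The rows of IL23A, IL1A, IL11 and LIF carry the status OK. The status did not follow the level, since IL1A has OK at 0.903 and 1.80, far below IL6. It therefore does not show that IL6 was covered less well than IL23A or IL1A, and why it was given was not tested.

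IL1A and IL1B encode the alpha and beta forms of interleukin-1, an alarm signal of damaged or infected tissue, and differed in direction. IL1A measured 0.903 FPKM in siControl and 1.80 in siSNRNP40 (log2 fold change 0.99), just under the fold. It was past the fold, at 1.02, with upper-quartile scaling of the groups. IL1B had 0.521 and 0.284 (log2 fold change -0.88), below the minimum level. The genes are separated by 44365 bases on chromosome 2, and these neighbours lay on opposite sides of 0. With a pseudocount of 1 FPKM these values were 0.56 and -0.24.

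IL11 and LIF encode cytokines of the IL6 family, which share the receptor chain IL6ST, and unlike IL6 both were lower. IL11 had an FPKM of 2.88 and 2.01 (log2 fold change -0.52), and LIF had 7.10 and 6.07 (-0.23). Neither was past the fold. Of the other family members in the lists, CLCF1 was at 3.0 and 4.74 (0.66), CTF1 at 1.2 and 1.1 (-0.13), and OSM was listed at 0. The family thus held genes above and below 0. None was past the fold, where the shares over all genes were 0.811% upwards and 0.657% downwards.

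CSF1, the growth factor of macrophages, was the most abundant of the 10 genes in both groups, at 35.0 FPKM in siControl and 26.2 in siSNRNP40 (log2 fold change -0.42). It has 4 rows on chromosome 1 from 110453233 to 110473616, of which 1 was listed at 0 in both groups. The fourth row had 20.2 and 17.9, the first 13.9 and 7.99, and the third 0.816 and 0.311. The share of the fourth row in the gene thus went from 57.9% to 68.3%, and that of the first from 39.8% to 30.5%. The first row carries the status LOWDATA, given where a locus is too complex or too thinly sequenced. CSF1 was lower in each of its 3 rows above 0, by 0.18 on the log2 scale in the fourth and by 0.80 in the first.

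IL15, which supports natural killer and memory T cells, had an FPKM of 2.38 and 3.0 (log2 fold change 0.34) over 3 rows on chromosome 4 from 142557749 to 142655140. The second row held 88.0% of the gene with control siRNA and 85.0% after depletion, with 2.09 and 2.55. The third had 0.286 and 0.452, and the first was listed at 0. The order of its rows was thus the same in both groups. The table gives no RefSeq or Ensembl identifiers, so the rows of CSF1 and IL15 are named by their order only.

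**Figure D2:**
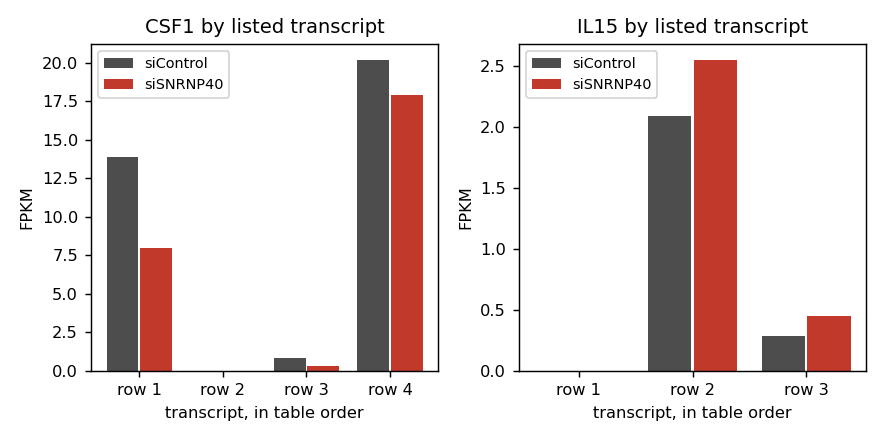
FPKM of each listed transcript of CSF1 and IL15 with control siRNA (dark bars) and SNRNP40 siRNA (red bars), 2 libraries pooled per bar and no error. The first row of CSF1 goes from 13.9 to 7.99 while the fourth goes from 20.2 to 17.9, and the 2 rows of IL15 above 0 are both higher.

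TNF, an early inflammatory signal, was barely present. Its row on chromosome 6 from 31543350 to 31546112 measured 0.0178 FPKM in siControl and 0.0467 in siSNRNP40, and the 7 other TNF rows, on alternative versions of the region, were listed at 0. The log2 fold change of 1.39 compares values near 0, and with a pseudocount of 1 FPKM it was 0.040. LTA and LTB, which encode lymphotoxins and lie 1251 and 2223 bases from TNF, were also low, with 0.0259 and 0.146 for LTA and 0.386 and 1.47 for LTB. All 3 genes of this cluster were higher after depletion, and none had a mean FPKM of 1.

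**Figure D3:**
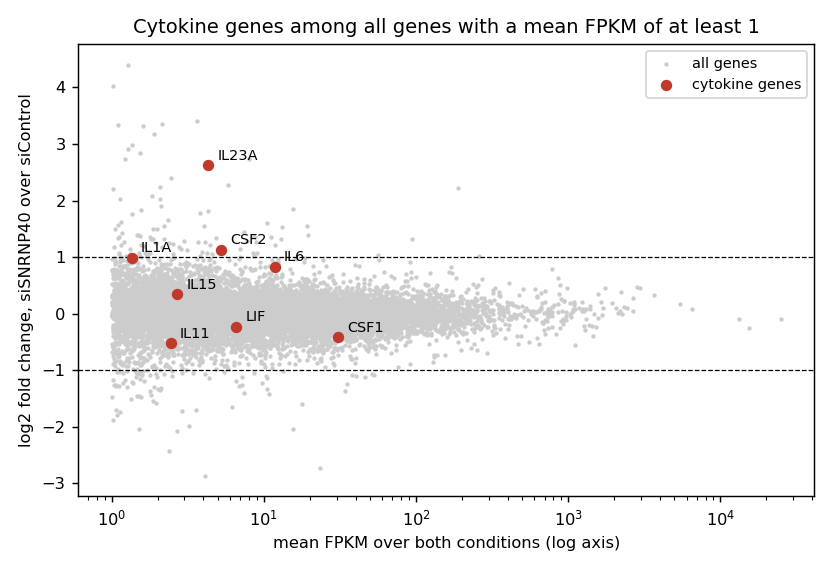
Log2 fold change, siSNRNP40 over siControl, against mean FPKM over both groups (log axis) for 12334 genes (grey points) and the 8 cytokine genes that reached a mean of 1 (red points). Dashed lines mark -1 and 1; IL23A at 2.62 and CSF2 at 1.13 lie above the upper line, and the scatter of all genes widens towards low FPKM.

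The 3' UTRs of the set share AU-rich letters. The choice did not read these letters, but many cytokine mRNAs are known to carry them. A high share in the set therefore follows in part from the class of gene chosen. In the main GENCODE transcript of each gene, 10 of 10 hold the pentamer ATTTA, as do 68.0% of 19173 genes, and 7 of 10 hold at least 5, as do 29.2%. The nonamer TTATTTATT, which contains the pentamer, was in 6 of 10 and in 8.48% of genes. Per kilobase of 3' UTR, CSF2 had 25.2 pentamers, IL6 14.1 and IL23A 13.1, while LIF had 2.19 and CSF1 1.86, and the median over all genes was 1.54. The densest 30 bases are shown for the 3 genes at the top of this order, as DNA with the pentamers in capitals.
CSF2: ttttaaaatATTTATTTATTTATTTATTTA
IL6: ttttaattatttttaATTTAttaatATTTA
IL23A: cagtttggggaggattATTTAttgtATTTA

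These windows lie at chr5:131411765-131411794, chr7:22771316-22771345 and chr12:56734119-56734148, on the plus strand. In CSF2 the 5 pentamers run into each other, and in IL23A 2 stand apart. Pentamer density and direction did not go together throughout the set. CSF2, IL6 and IL23A, the densest, were higher after SNRNP40 depletion, IL23A by choice, and LIF and CSF1, the sparsest, were lower. Between them, IL1B (9.84 per kilobase) and IL11 (5.54) were lower, while TNF (11.3), IL1A (4.38) and IL15 (3.51) were higher. The nonamer occurred 6 times in IL11, the most of the set, and 0 times in IL6. The same density was then looked up in all genes, a step chosen after the values were seen. At 10 or more pentamers per kilobase, 99 genes passed the level filter, and their median log2 fold change was 0.005. Of these 99, 2 were past the fold upwards (2.02%), which were IL23A and CSF2 themselves, and 0 downwards. Of 984 genes with the nonamer, 6 were past the fold upwards (0.610%), again with IL23A and CSF2 among them. This share therefore includes a gene chosen for its value. The median of the 984 genes was -0.032. For 10024 genes with a 3' UTR, the upward share was 0.479%.

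**Figure D4:**
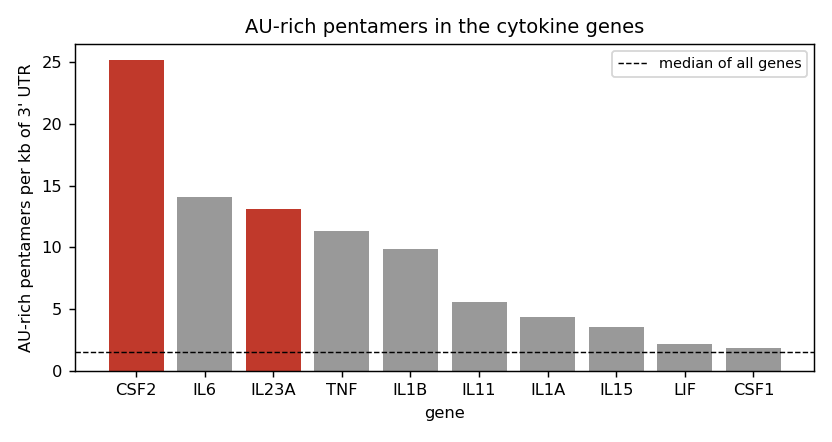
AU-rich pentamers per kilobase of 3' UTR in the main transcript of each cytokine gene, with the genes past the fold in red and the median of all genes, 1.54, as a dashed line. CSF2 at 25.2, IL6 at 14.1 and IL23A at 13.1 stand highest.

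The siRNA strands were also searched in the set. The 7 capital bases of siRNA #1 occur in the 3' UTR of 1 of the 10 genes, LIF, and of 11.1% of all genes, and those of siRNA #2 in 0 of the 10 and 7.63% of all genes. No run longer than 9 of the 18 bases, on either strand, was shared with a main transcript of the 10 genes, and for IL23A the longest was 7. The exact ends of the guide strands are not given in the sources used here, so the 7 bases are those of a guide that pairs with the whole printed strand.

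Receptor genes of the cytokines were present in part, and some chains were at or near 0. Of 16 receptor genes, 11 had a mean FPKM of at least 1, with 1 past the fold upwards, 1 downwards and a median log2 fold change of 0.15. Over all genes the shares past the fold were 0.811% upwards and 0.657% downwards. IL6ST, the signal chain shared by IL6, IL11 and LIF, was the most abundant at 64.7 and 75.9 (log2 fold change 0.23). TNFRSF1B, the second receptor of TNF, had 4.64 and 9.32 (1.01), and CSF1R, the receptor of CSF1, had 1.98 and 0.907 (-1.13). With a pseudocount of 1 FPKM these log2 fold changes were 0.87 and -0.64, neither past the fold. Of the receptor chains of CSF2, CSF2RA reached a mean FPKM of 1, but CSF2RB was at 1.3e-07 and 0. Of those of IL15, IL15RA reached it, but IL2RB was at 0 in both groups and IL2RG at 0.0234 and 0.0439. IL6R, the receptor of IL6, was just below it at 1.05 and 0.904. For IL23A itself the receptor genes were low, with 0.143 and 0.224 for IL23R and 1.68 and 1.12 for IL12RB1. The partner subunit IL12B was at or near 0 in both groups, with 0.0280 and 1.845e-04. IL23A mRNA was thus higher in cells with almost no mRNA for its partner subunit.

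Proteins that block cytokines, cut them into active form or release them showed no gene past the fold. Over all genes the shares were 0.811% upwards and 0.657% downwards, so 0 in lists this short says little. Of 8 decoy receptors and inhibitors, 4 had a mean FPKM of at least 1, with a median log2 fold change of -0.24. The most abundant was TNFRSF10D, a decoy receptor of the TNF family, at 9.13 and 8.03 (-0.19). Of 11 genes for maturation and release, 10 passed, with a median of -0.11, and CAPN2, a calpain of the protease family that processes IL1A, was at 242 and 156 (-0.64). Among 23 other cytokine genes 9 passed, none past the fold, with a median of 0.35, and the most abundant was TNFSF10, the death ligand TRAIL, at 69.4 and 88.8 (0.35).

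Regulators of mRNA decay and the JAK-STAT arm held genes on both sides of 0. Of 15 decay regulators 14 passed, with 7 above 0, 7 below and a median log2 fold change of -0.002. CNOT7, a deadenylase of the CCR4-NOT complex, was the most abundant at 68.1 and 102 (0.58), and ZC3H12A, the endonuclease Regnase-1 that cuts cytokine mRNAs, had the highest log2 fold change at 2.21 and 3.91 (0.82). Of 12 JAK-STAT genes 10 passed, with a median of -0.031, and JAK1 was at 47.2 and 46.0 (-0.037). STAT5A, a factor activated by CSF2 among others, had the highest of this list at 2.26 and 4.16 (0.88). No gene of either list was past the fold, where the shares over all genes were 0.811% upwards and 0.657% downwards.

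Interferon-stimulated genes were also higher after depletion. Of 15 such genes, 14 passed, 13 of them above 0, with a median log2 fold change of 0.50 and 0 past the fold. Over all 12334 genes, 6233 were above 0 and the median was 0.003. The shares past the fold over all genes were 0.811% upwards and 0.657% downwards. ISG15, a ubiquitin-like protein of the antiviral response, was the most abundant at 122 and 217 (0.83). IFNB1, the gene for interferon beta, was listed at 0 in both groups. The list summed to 607 with control siRNA and 930 after depletion, and the part of this response in the levels of the cytokine genes was not tested.

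**Figure D5:**
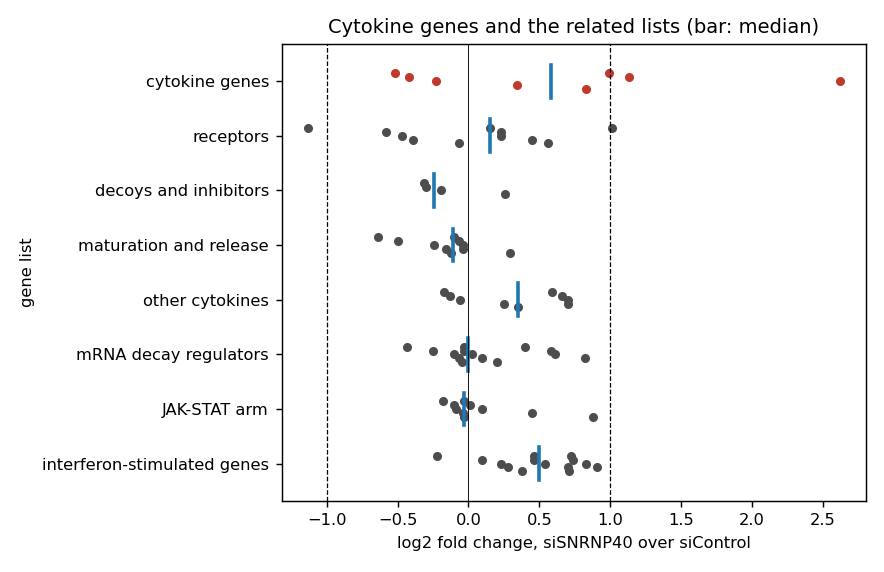
Log2 fold change, siSNRNP40 over siControl, of each gene counted, at mean FPKM 1 or more, in the cytokine set (red) and in 7 related lists (dark), with the median of each list as a blue bar and dashed lines at -1 and 1. The median of the cytokine genes is 0.58 with IL23A, which was chosen for its value, and 0.34 without it, beside 0.50 for the interferon-stimulated genes and 0.35 for the other cytokines.

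The genes whose pair of values lay nearest to that of IL23A were sought among the other 7051 genes with 1 row and a mean FPKM of at least 1, by the distance between their log2 FPKM in the groups. They were SNORA70G, a small nucleolar RNA (1.72 and 5.89, distance 0.606), CXCL10, an interferon-induced chemokine (1.89 and 6.67, 0.662), the read-through gene MUTED-TXNDC5 (1.99 and 9.59, 0.803), ISG20, an interferon-stimulated exonuclease (2.05 and 6.0, 0.822), and RHEBL1, a small GTPase (1.73 and 4.21, 0.965). The likeness rests on 2 values a gene, each the pool of 2 libraries. Their log2 fold changes, which the search itself fixed near that of IL23A, ran from 1.29 for RHEBL1 to 2.27 for MUTED-TXNDC5.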

How the data were processed

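RNA of 4 libraries, 2 per group, was examined as 1 transcript table. Per the labels and the study's methods, the authors used cutadapt 1.2.1 for trimming, aligned them with TopHat2 2.0.8 to hg19, merged Cufflinks assemblies and ran Cuffdiff 2.0.2. Deposited values, in FPKM, were estimated by that tool per transcript and group, scaled by the authors for length and mapped fragments. Fold changes, test statistics, p-values and significance calls in the table are the authors' own comparison and were not used. Read counts cannot be recovered from pooled FPKM, so depth is unknown and no count test or test over libraries was run.

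FPKM was summed by gene symbol. A gene was counted at a mean FPKM of at least 1, with a finite log2 fold change, and called past the fold beyond 1 or -1, without a pseudocount. Groups follow the sample titles. Locus starts were raised by 1 base to count from 1. Transcript ends and exons came from GENCODE release 44 on GRCh37, 1 main transcript a gene, and promoters from RefSeq. Symbols missing from the table were sought as synonyms. Python 3.11.15, numpy 2.4.6 and pandas 2.3.3 were used. On simulated data for 12334 genes, all 200 changed genes were recovered and 0 others were called. The planted changes lay well beyond the fold, with small noise of the same size at every level. Full recovery was thus fixed in advance, and it checks the arithmetic only, not how often real calls are wrong.

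The members and lists were chosen with earlier results of these data known. Named genes are the 10 members, SNRNP40, the neighbours of IL23A, in each list the most abundant gene and any past the fold, and the 5 genes nearest to IL23A. Other genes (IL12B, IL23R, IL12RB1, CSF2RA, CSF2RB, IL15RA, IL2RB, IL2RG, IL6R, IFNB1, LTA, LTB, CLCF1, CTF1, OSM, ZC3H12A, STAT5A and the cell markers) were named after their values were seen. Alternatives changed the level of a gene, the pseudocount, the filter, the scaling, the contigs and the fold.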

Additional observations from a re-analysis of the deposited data

How the results depend on the processing

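No paired analysis was possible because each measured column pools the libraries of a group and carry no replicate numbers; leaving out each library and the replicate block were not run for the same reason. Of 45 alternative values for the main results, 31 stayed (log2 values within 0.1, counts within 1.5 times) and 14 moved. Without IL23A, an alternative chosen after seeing the data, the median of the cytokine genes was 0.34 and the count past the fold upwards 1 (CSF2). With a pseudocount of 1 FPKM, the log2 fold change of IL23A was 1.93, the median of the cytokine genes 0.40, the cytokine genes past the fold upwards 1 (IL23A) and all genes past the fold 74. At a minimum mean FPKM of 5, where IL23A was not counted, the median of the 4 genes left was 0.30, the count 1 (CSF2) and that of all genes 49. At a log2 fold of 0.5 the cytokine genes past it were 4 upwards and 1 downwards (IL11), and all genes 1270. All genes past the fold, 181 here, were 454 with the most expressed transcript alone and 1870 with no filter. With upper-quartile scaling IL1A passed as well, giving 3. Median centring changed every log2 value by -0.003 and upper-quartile scaling by 0.031. Over 156 values of 26 single genes, 135 stayed, 21 moved and 0 changed sign. Why each value moved was not tested, beyond a pseudocount drawing low values towards 0 and a higher minimum leaving fewer genes. The limit set by sequencing depth could not be computed, and scatter was wider at low FPKM.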
